A study of Homo sapiens with 8 samples.

Results

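Histone genes were the subject of these measurements: every gene of the expression table whose full name held the word histone and whose symbol began with H1, H2A, H2B, H3, H4, HIST or MACROH2A. The rule found 77 of the 13771 genes in the table, of which 64 were replication-dependent genes, 11 were variants and 2 were pseudogenes (H2BC20P and H2BP1). The replication-dependent genes comprised 5 H1, 15 H2A, 17 H2B, 13 H3 and 14 H4 genes. RNA-seq had been done on 8 libraries, 2 in each of 4 groups: MCF10A, an immortalised non-tumorigenic breast epithelial line, and DCIS.COM, a line derived from the MCF10 series that models ductal carcinoma in situ, each with HOTAIR (pCDH-HOTAIR) or with the empty vector (pCDH-empty). HOTAIR is a long non-coding RNA transcribed from the HOXC locus. All 4 groups were stable transductants under puromycin selection. They grew in different media, since MCF10A medium held epidermal growth factor, hydrocortisone, insulin and cholera toxin beside horse serum and DCIS.COM medium held horse serum without those additions, so cell line and medium cannot be told apart in any comparison of the lines. The labels do not say that the 2 libraries of a group came from separate cultures, so each p-value below measures only the spread between libraries, which may be technical.

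The core histones H2A, H2B, H3 and H4 form the octamer around which DNA is wrapped, and H1 binds the linker between octamers. Replication-dependent histone genes lie in clusters, have no introns and are transcribed in S phase to package new DNA. Their mRNAs normally lack a poly(A) tail and end in a stem-loop that is bound by SLBP, the stem-loop binding protein. Variant histones such as H3.3 and H2A.Z are made from polyadenylated mRNAs throughout the cell cycle and are exchanged into chromatin outside replication.

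The stem-loop separated the replication-dependent genes from the variants in sequence. A match to a 16-base stem-loop (6 paired bases on each side of a 4-base loop) within 150 bases after the stop codon was present in 57 of the 59 replication-dependent genes with a coding annotation, or 96.6%. It was present in 12 of 20092 protein-coding genes that were not members, or 0.0597%. Histone genes absent from the expression table were not set apart from these. Among the variants it was present in 1 of 11, H2AX, the variant that is phosphorylated at DNA breaks and is known to give both kinds of mRNA. The stem was GGCTCT in all 45 matched H1, H2A, H2B and H3 replication-dependent genes and GGCCCT in all 12 matched H4 genes. The forms below are shown because they distinguish these classes, with the paired stem in capitals and the loop in lower case, read from the GRCh37 genome.
Most frequent form, in 35 genes of H1, H2A, H2B and H3: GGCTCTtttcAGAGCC
Most frequent H4 form, in 7 genes: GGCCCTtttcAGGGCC
H2AX: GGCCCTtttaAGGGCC
In the replication-dependent genes the stem-loop began between 26 and 71 bases after the stop codon, with a median of 39.0. The 2 coding genes with no exact match were H2AC11 and H2AC15.

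The promoters also differed by family. RefSeq (GRCh38.p14) gave a 300-base window, 250 bases before and 50 after the start, for 68 members. Those with no entry included H2AC12, H2BC20P, H2BP1, H3-5, H3C11, H3C12, H4C1 and H4C3. On either strand, GGTCCG, the core of the element known from H4 promoters, was in 12 of 12 H4 promoters against 11.2% of all 27305 promoters. AAACACA, the H1 box, was in 5 of 5 replication-dependent H1 promoters against 5.76% of all. CCAAT was in every replication-dependent H1, H2A, H2B and H3 promoter (5, 14, 17 and 11 of them) but in 3 of 12 H4 promoters, against 35.7% of all. ATTTGCAT, the octamer of H2B promoters, was in 13 of 17 H2B promoters and in 9 of 14 H2A promoters, many of which share a divergent promoter with an H2B gene, against 1.8% of all. TATAAA was in 39 of 59 replication-dependent promoters and in 12% of all promoters. A match is a description of the window and not evidence of a bound factor.

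The 3 H4 promoters with CCAAT belonged to H4C6, H4C9 and H4C13, which were also the H4 genes with almost no reads in DCIS.COM (below). The stretches below cover the 150 bases before the start of those genes and of H4C8, an H4 gene that was expressed in both lines, with matches to the CCAAT, H4 and TATA motifs named above in capitals.
H4C6: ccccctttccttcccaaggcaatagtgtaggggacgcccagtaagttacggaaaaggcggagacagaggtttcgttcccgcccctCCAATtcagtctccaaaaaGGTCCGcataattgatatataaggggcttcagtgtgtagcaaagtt
H4C9: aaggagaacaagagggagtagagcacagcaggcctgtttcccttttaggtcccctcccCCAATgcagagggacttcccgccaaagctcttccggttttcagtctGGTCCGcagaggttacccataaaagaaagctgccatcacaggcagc
H4C13: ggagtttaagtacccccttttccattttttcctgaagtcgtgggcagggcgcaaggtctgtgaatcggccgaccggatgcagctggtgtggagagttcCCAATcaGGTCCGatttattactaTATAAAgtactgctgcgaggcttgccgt
H4C8: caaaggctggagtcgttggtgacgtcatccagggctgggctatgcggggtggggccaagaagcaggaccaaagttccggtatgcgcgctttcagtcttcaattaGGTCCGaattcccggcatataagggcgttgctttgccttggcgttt
On GRCh38.p14 these are chr6:26240243-26240392 (plus strand), chr6:27139132-27139281 (plus strand), chr6:27873535-27873684 (minus strand) and chr6:26285535-26285684 (minus strand). The 300-base windows of H4C6, H4C9 and H4C13 held 8, 5 and 12 CG dinucleotides, and those of the other 9 H4 genes held 8 to 21, with a median of 17, so the ranges overlapped. This resemblance among the 3 promoters was noticed after their expression was seen, and no test was made of it.

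Each library held 19306864 to 34884841 reads in the tabulated genes, as recovered from the deposited log2 CPM values (CPM, counts scaled to library size). HOTAIR itself matched the labels, with log2 CPM values of 0.60 and 0.66 in MCF10A with empty vector, 7.90 and 7.92 in MCF10A with HOTAIR vector, 2.01 and 2.41 in DCIS.COM with empty vector and 7.66 and 7.57 in DCIS.COM with HOTAIR vector. All 8 epithelial markers sought were in the table. The basal keratins KRT5, KRT6A, KRT14 and KRT17 were called lower in DCIS.COM under both vectors, with log2 fold changes from -6.95 to -2.36, while EPCAM, KRT18 and TP63, a transcription factor of basal cells, were called higher, TP63 by 0.75 and 0.77. CDH1 was at -0.59 (called lower) with empty vector and at -0.53 (under the fold threshold) with HOTAIR vector. Of 11 markers of other cell types 4 were in the table, whose summed level was 16.1 to 20.3 CPM in DCIS.COM and, in MCF10A, 32.2 CPM in both empty-vector libraries and 41.8 and 43.6 CPM with HOTAIR vector. Small non-polyadenylated RNAs (22 genes, mainly RN7SL1 and RN7SL2) took 13.7% to 17.9% of the reads in 7 libraries and 22.3% in the library DCIS.COM pCDH-empty 1.

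That library stood apart in its histone mRNAs as well. The 64 replication-dependent genes summed to 18218 CPM in DCIS.COM pCDH-empty 1 and to 12200 CPM in DCIS.COM pCDH-empty 2, a ratio of 1.49. As a share of the reads they took 1.70% and 1.27% of these libraries, a smaller relative difference than in CPM. Of the 60 replication-dependent genes that were expressed in DCIS.COM, all 60 were higher in pCDH-empty 1 than in pCDH-empty 2, against 51.1% of all genes. The median log2 difference was 0.58. The same difference over all genes was 0.01 in the median, and over the 11 variants it was 0.07. One-sided counts also arose between other replicates. In MCF10A with empty vector 58 of the 60 genes were higher in replicate 1, but by a median of 0.07. With HOTAIR vector 38 were higher in MCF10A and 14 in DCIS.COM, with medians of 0.02 and -0.03. The size of the difference, and not the count, thus set DCIS.COM pCDH-empty 1 apart. Call counts, medians and sums over all members, the replication-dependent genes and the variants that use the empty-vector DCIS.COM group are therefore given with and without this library. Without it that group is 1 library, which is assumed to vary like the libraries of the other groups. The values without it therefore rest on no replicate of that group. The part of small RNA content in the differences between the 2 libraries was not tested.

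In sum over genes, replication-dependent histone mRNA was the larger histone pool and was higher in DCIS.COM. In MCF10A the 64 genes summed to 7665 and 7342 CPM with empty vector and to 6816 and 6740 CPM with HOTAIR vector. In DCIS.COM they summed to 18218 and 12200 CPM with empty vector and to 11399 and 11715 CPM with HOTAIR vector. The reads of near-identical gene copies (below) may enter the replication-dependent sums, and those of their families, at both copies. Every DCIS.COM library was above every MCF10A library, and the ratio of group means was 2.03 with empty vector (1.63 with pCDH-empty 2 alone) and 1.71 with HOTAIR vector. The 11 variants summed to 1393 to 1477 CPM in MCF10A and to 2297 to 2386 CPM in DCIS.COM, again with no overlap. In these bulk libraries more cells in S phase and more histone mRNA per cell cannot be told apart.

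**Figure D1:**
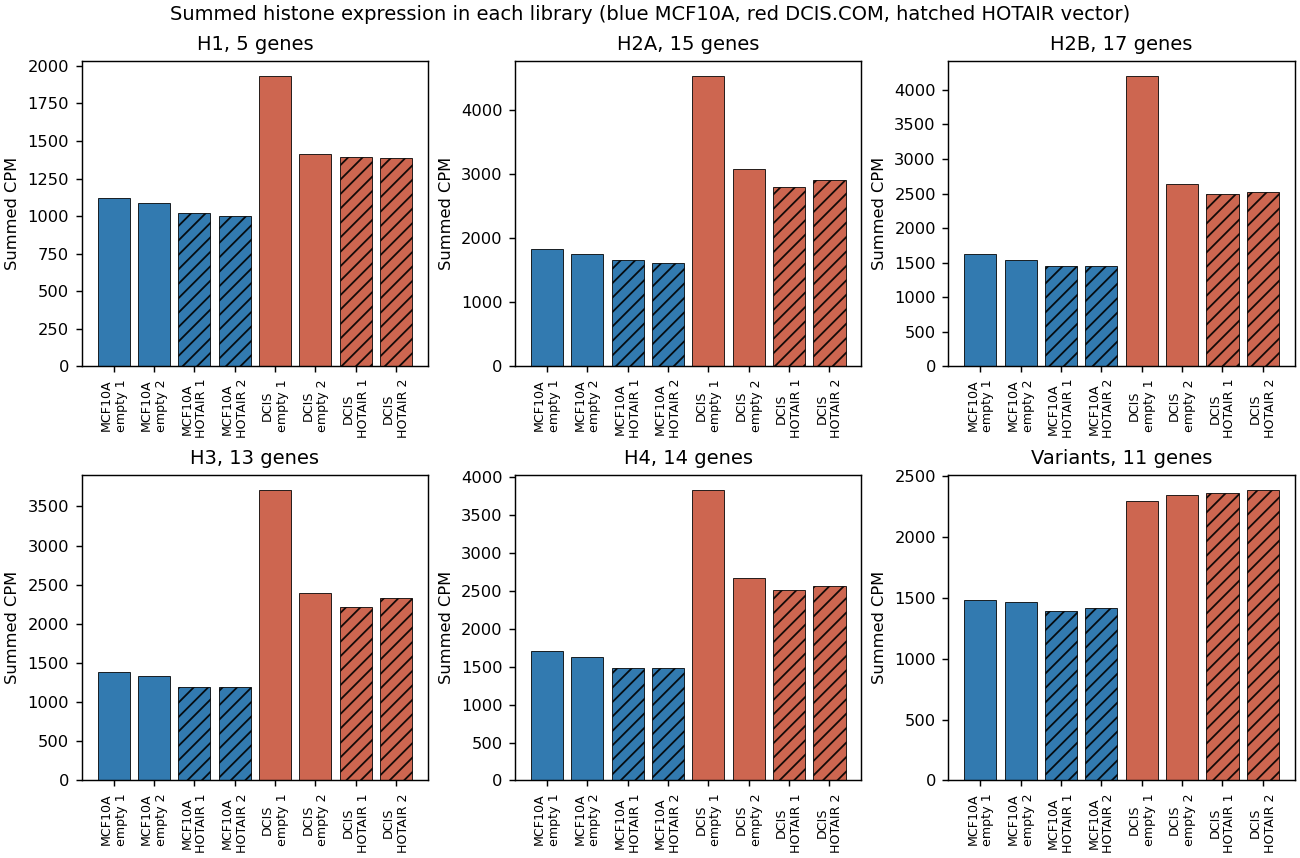
Summed CPM (vertical axis, starting at 0) of the replication-dependent genes of each family and of the variants in each of the 8 libraries, 1 bar per library, blue for MCF10A, red for DCIS.COM and hatched for the HOTAIR vector. DCIS.COM pCDH-empty 1 is the tallest bar in the 5 replication-dependent panels (4529 CPM against 3078 CPM in pCDH-empty 2 for H2A) but not in the variant panel.

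Compared per length, which is needed to set genes against each other, the highest tabulated levels were those of H4 genes in near-identical pairs. Levels per length are CPM per kilobase of the MANE Select transcript, the reference transcript agreed between annotations. With empty vector in MCF10A the highest were H4C12 at 648 CPM per kilobase and H4C11 at 635, followed by H2AC19 at 569. In DCIS.COM with empty vector H4C14 and H4C15 led at 1795 and 1794 CPM per kilobase, followed by H2AC19 at 1408, while H4C12 reached 939. H2AC13 was at 358 and 736 CPM per kilobase in the 2 lines and H2BC18 at 265 and 725. Some of these genes are near-identical copies whose reads cannot be told apart: H4C14 and H4C15 differed by at most 0.0173% of their reads in any library, H2AC18 and H2AC19 by at most 0.0572%, H3C14 and H3C15 by at most 0.925% and H4C11 and H4C12 by at most 1.63%, so each such pair is 1 measurement. How reads shared by 2 copies were counted is not given in the sources used here. The level of each copy may hold the reads of both, so its rank against single genes is uncertain. The most abundant variant was H2AZ1, the main H2A.Z gene, at 407 CPM per kilobase in MCF10A and 441 in DCIS.COM with empty vector.

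The comparison of the lines was made separately for each vector, so that its fold changes rest on different libraries. The estimate of the spread behind the p-values was shared by all 8 libraries, so the calls under the 2 vectors are not independent. With empty vector, 55 of 77 histone genes were called higher in DCIS.COM and 5 were called lower (limma, Benjamini-Hochberg adjusted p under 0.05 over all genes and a fold change of at least 1.5), against 22.5% of all genes called higher and 23.8% called lower. With HOTAIR vector, 53 were called higher and 5 lower, against 22% and 21.7% of all genes. The median log2 fold change of the 64 replication-dependent genes was 0.99 with empty vector and 0.74 with HOTAIR vector, and that of the 11 variants was 0.75 and 0.69. The median of all genes was within 0.01 of 0 in both. Without DCIS.COM pCDH-empty 1, 49 members were called higher and 6 lower with empty vector, against 22% and 22.5% of all genes, and the replication-dependent median was 0.68. With a correction for transcript length the HOTAIR-vector count became 28 higher and 5 lower of 71 members, against 21.4% and 22.1% of the genes with a length, with a replication-dependent median of 0.47. Over all 4 libraries of each line, 61 members did not overlap and were higher in DCIS.COM and 8 did not overlap and were lower, against 34.6% and 35.6% of all genes.

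**Figure D2:**
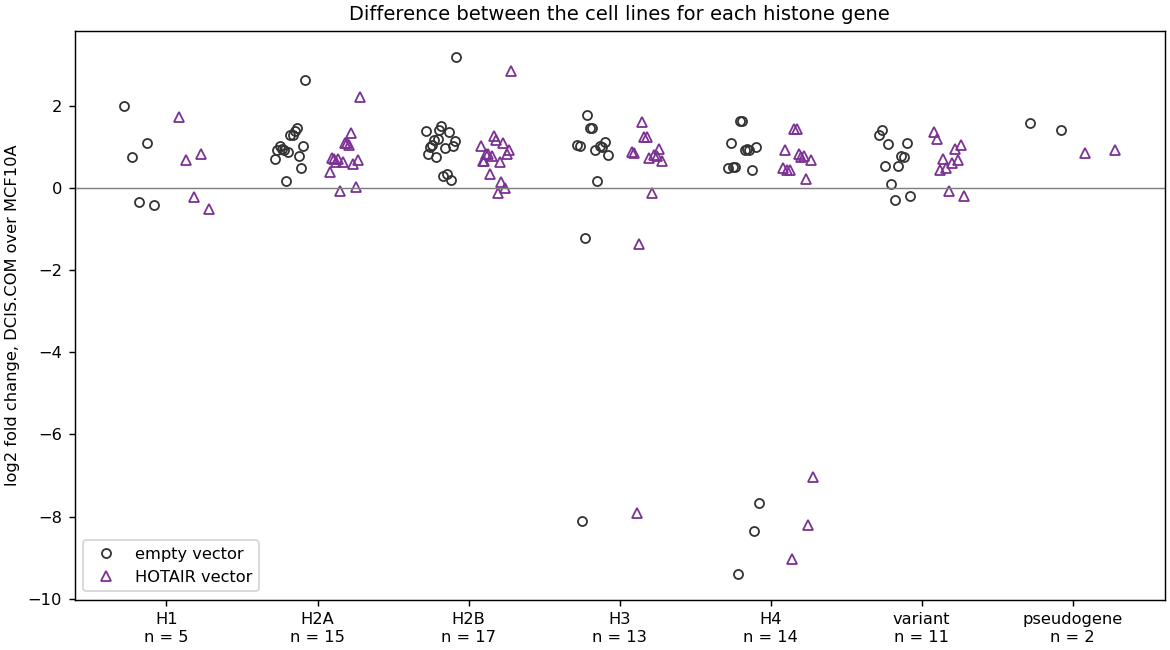
log2 fold change of DCIS.COM over MCF10A (vertical axis) for each of the 77 histone genes, grouped by family and class on the horizontal axis, with circles for the empty vector and triangles for the HOTAIR vector. Most points lie between 0 and 2. The 4 genes near the bottom of the H3 and H4 columns had 0 to 5 reads in every DCIS.COM library, so their exact position depends on the small constant added before taking logarithms.

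The largest rises were at chromosome 1q42, where H2BU1 and H2AW lie 0.23 kilobases apart in opposite directions at about 228.6 megabases (GRCh37) away from the main clusters. H2BU1, an H2B gene, was at 9.46 and 8.76 CPM in MCF10A with empty vector, 8.21 and 7.66 CPM with HOTAIR vector, 101 and 69.0 CPM in DCIS.COM with empty vector and 56.1 and 59.2 CPM with HOTAIR vector. All 4 DCIS.COM libraries lay far above the 4 MCF10A libraries. The log2 fold change was 3.19 ± 0.16 (SE, n = 2 against 2; 9.12-fold, limma adjusted p = 8.56e-07) with empty vector and 2.85 ± 0.16 (7.21-fold, limma adjusted p = 1.67e-06) with HOTAIR vector. H2AW, its H2A neighbour, was at 6.36 to 7.44 CPM in MCF10A and at 30.1 to 57.2 CPM in DCIS.COM, with log2 fold changes of 2.63 ± 0.20 and 2.21 ± 0.20 for the 2 vectors. Without DCIS.COM pCDH-empty 1 the empty-vector values were 2.91 for H2BU1 and 2.28 for H2AW. Their levels in MCF10A were low, so these were large changes in small contributions to the H2A and H2B pools.

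The 11 members at chromosome 1q21 were called higher in DCIS.COM under both vectors, 11 of 11 each time, against 22.5% and 22% of all genes. They include 3 of the near-identical pairs, each of which is 1 measurement. Their median log2 fold change was 1.46 with empty vector, 1.14 with pCDH-empty 2 alone and 1.25 with HOTAIR vector. Summed, they reached 1732 to 2031 CPM in MCF10A and 4063 to 6732 CPM in DCIS.COM. The reads of these pairs may enter this sum at both copies. The near-identical pair H4C14 and H4C15 stood at 194 to 230 CPM each in MCF10A and at 520 to 847 CPM each in DCIS.COM, and H4C14 rose by 1.64 ± 0.15 on the log2 scale with empty vector (limma adjusted p = 3.01e-05). H3C13, an H3 gene of this cluster, was at 66.3 and 60.5 CPM in MCF10A with empty vector, 54.2 and 51.2 CPM with HOTAIR vector, 282 and 166 CPM in DCIS.COM with empty vector and 153 and 170 CPM with HOTAIR vector. Its log2 fold changes were 1.77 ± 0.21 (1.39 without DCIS.COM pCDH-empty 1) and 1.61 ± 0.21. Of the genes next to this cluster that are not histones, BOLA1 and SF3B4 had values of 0.97 and 0.98 with empty vector and 1.11 and 0.76 with HOTAIR vector, and MTMR11 had 0.13 and -0.05. DNA copy number of the lines was not measured here.

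The replication-dependent H1 genes split. H1-1 was at 39.5 to 40.6 CPM in the 4 MCF10A libraries and at 131.8 to 188.6 CPM in DCIS.COM, and rose 3.98-fold (limma adjusted p = 3.76e-06) with empty vector and 3.33-fold with HOTAIR vector, with an SE of 0.13 on the log2 scale. H1-2 and H1-4, the most abundant linker genes in DCIS.COM, were also called higher under both vectors, H1-2 by 0.76 ± 0.11 (0.58 without DCIS.COM pCDH-empty 1, under the fold threshold) and 0.69 ± 0.11. H1-5 went the other way, with 316 and 302 CPM in MCF10A with empty vector, 279 and 270 CPM with HOTAIR vector, 269 and 197 CPM in DCIS.COM with empty vector and 191 and 192 CPM with HOTAIR vector. Its log2 differences were -0.42 ± 0.13 (adjusted p = 0.0175 by limma) and -0.52 ± 0.13 (adjusted p = 0.00721 by limma), which stayed under the fold threshold. H1-3 was similar, at -0.35 ± 0.08 and -0.23 ± 0.08. In both genes the libraries of the lines did not overlap. Without DCIS.COM pCDH-empty 1, which leaves a lone library in that group, the H1-5 value with empty vector was -0.65.

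Within the long chromosome 6 cluster, where 50 of the members lie, neighbouring genes differed far more than the clusters did. The first block (29 genes, 26.018 to 26.2859 megabases on GRCh37) had a median log2 fold change of 0.95 with empty vector and 0.74 with HOTAIR vector, and the second block (21 genes, 27.1006 to 27.8612 megabases) had medians of 0.84 and 0.62. The empty-vector medians include DCIS.COM pCDH-empty 1, which lay above pCDH-empty 2 by medians of 0.582 and 0.565 in these blocks. Against these block medians, 4 genes that were well expressed in MCF10A had almost no reads in DCIS.COM. They are singled out after their values were seen.

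H4C6 had 736, 612, 407 and 421 reads in the MCF10A libraries and 0 reads in each of the 4 DCIS.COM libraries. Set against a floor of 3 reads over the 4 libraries, it was at least 941-fold lower in DCIS.COM. H4C13 had 1472, 1302, 966 and 1007 reads in MCF10A and 0, 0, 2 and 0 in DCIS.COM, a 3078-fold ratio of pooled CPM (95% counting interval 852 to 25420). H3C11, whose start lies 1.188 kilobases from that of H4C13, had 624, 521, 393 and 408 reads against 0, 0, 1 and 0, a 2523-fold ratio (452 to 99720). These intervals and the floor cover counting error only. H4C9, at chr6:27107061-27107457 on GRCh37, had 702, 548, 397 and 361 reads against 1, 1, 5 and 1, a 326-fold ratio (165 to 755). The low read numbers of all 4 genes held under both vectors, and the libraries of the lines were fully separate. All 4 genes encode replication-dependent histones, 3 of them H4, whose protein is also encoded by many other members.

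Their neighbours kept reads in DCIS.COM. H4C9 lies 6.239 kilobases from H2AC11 and 7.573 kilobases from H2BC12, which had log2 fold changes of 0.71 and 0.99 with empty vector (0.36 and 0.63 without DCIS.COM pCDH-empty 1). H4C6 lies 10.24 kilobases from H3C7, at 1.13 with empty vector and 0.96 with HOTAIR vector, and 5.406 kilobases from H1-3, at -0.35 and -0.23. H3C11 and H4C13 lie between H1-5, 4.758 kilobases away at -0.42, and H3C12. The annotated span of H3C12 is longer than its 512-base reference transcript, so no distance to it is given. H3C12, a weakly expressed H3 gene, was the other member called lower under both vectors, with 111, 82, 39 and 57 reads in MCF10A and 42, 37, 43 and 22 reads in DCIS.COM, and log2 fold changes of -1.21 ± 0.29 and -1.35 ± 0.29. The low values at the far end of the second block thus sat beside each other in gene order. H2AC17 and H2BC17, the next members after H3C12, were at 0.87 and 1.20 with empty vector and at 0.64 and 0.78 with HOTAIR vector. Over the whole table, 51 of the 8952 genes that reached 10 CPM in every MCF10A library had at most 5 reads in every DCIS.COM library, or 0.57%, and 4 of these were among the 71 histone genes that reached that level. In the converse direction 55 of 8643 genes met the criterion and 0 of 69 histone genes did.

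**Figure D3:**
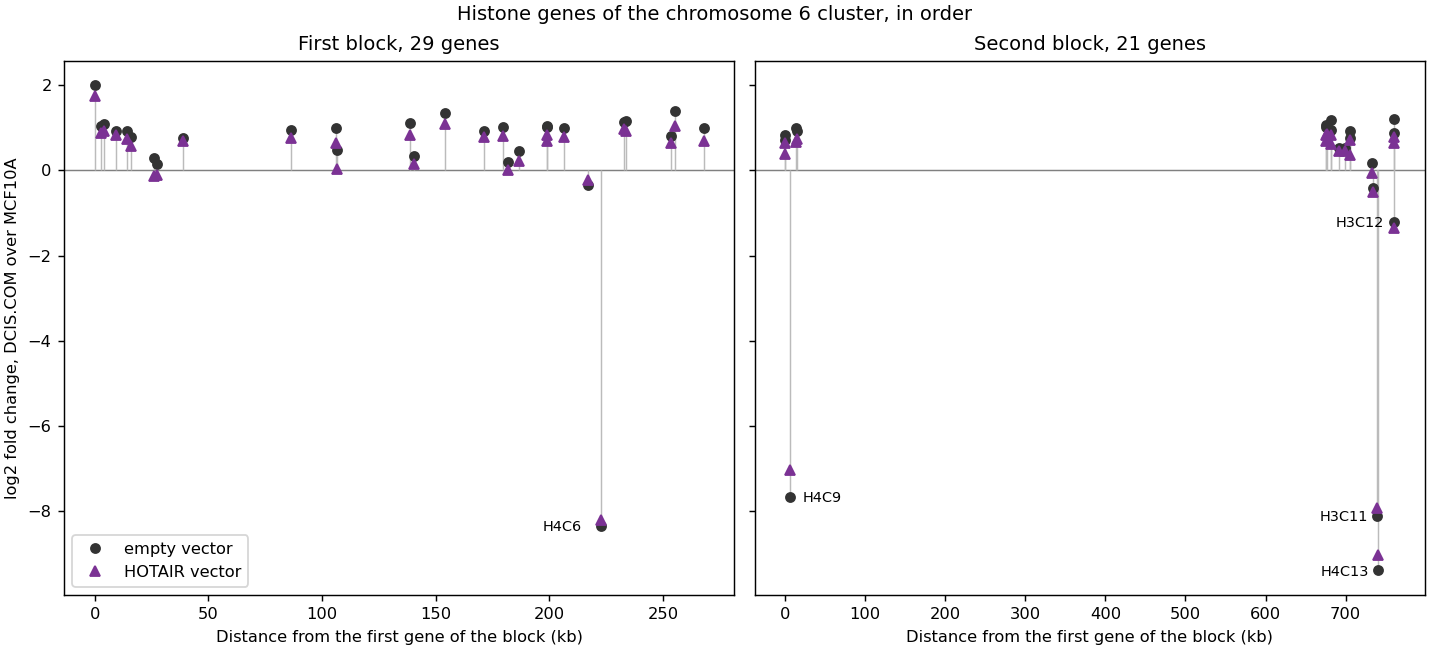
log2 fold change of DCIS.COM over MCF10A (vertical axis) of the chromosome 6 histone genes by distance from the first gene of each block in kilobases (horizontal axis), with dots for the empty vector and triangles for the HOTAIR vector. Positions are annotated gene starts. Where the annotated span is longer than the reference transcript, as for H3C12 and H2BC6, they may lie away from that transcript. H4C6, H4C9, H3C11 and H4C13 fall below -7 while the other genes within 11 kilobases of each lie between -1 and 2. The values of these 4 genes depend on the small constant added before taking logarithms.

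Among the variants, 6 of 11 were called higher in DCIS.COM with empty vector and 7 of 11 with HOTAIR vector, against 22.5% and 22% of all genes. Under either vector 0 were called lower (limma), against 23.8% and 21.7% of all genes. The empty-vector counts were again 6 and 0, with a median of 0.74, without DCIS.COM pCDH-empty 1. At an unadjusted p under 0.05, 8 were higher and 1 lower with empty vector, against 35.2% and 35.8% of all genes, and 9 and 0 with HOTAIR vector, against 34.5% and 34.2%. MACROH2A1, a large H2A variant associated with silent chromatin, was at 185 to 197 CPM in MCF10A and at 389 to 439 CPM in DCIS.COM, with log2 fold changes of 1.10 ± 0.07 (limma adjusted p = 2.63e-06) and 1.06 ± 0.07 (limma adjusted p = 3.33e-06). Its relative MACROH2A2 did not pass the test, at -0.19 ± 0.09 under both vectors. H1-10 rose by 1.42 ± 0.12 and 1.19 ± 0.12, and H2AX by 1.07 ± 0.14 and 0.72 ± 0.14.

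H3.3 is encoded by H3-3A and H3-3B, which make the same protein. H3-3B was at 412, 405, 372 and 399 CPM in MCF10A and at 697, 711, 745 and 746 CPM in DCIS.COM, and was called higher under both vectors (0.79 ± 0.06 and 0.95 ± 0.06). H3-3A rose less, by 0.60 ± 0.06 with HOTAIR vector, and its 0.55 ± 0.06 with empty vector fell under the fold threshold. As a share of all H3 mRNA per length, H3.3 took 10.6% to 12.1% in MCF10A, 9.75% to 11.1% in 3 DCIS.COM libraries and 6.61% in DCIS.COM pCDH-empty 1. The H3 total in this share may hold the reads of H3C14 and H3C15 at both copies. H2A.Z is encoded by H2AZ1 and H2AZ2. H2AZ1 was at 301 to 354 CPM in MCF10A, at 316 and 448 CPM in DCIS.COM with empty vector and at 425 and 440 CPM with HOTAIR vector, and was called in neither comparison. H2A.Z took 11.7% to 12.5% of H2A mRNA per length in MCF10A and 9.51% to 9.87% in 3 DCIS.COM libraries, with 4.85% in DCIS.COM pCDH-empty 1. Other variants were H2AJ (0.53 ± 0.11 and 0.44 ± 0.11, under the fold threshold), H2AZ2 (-0.30 ± 0.09 and -0.08 ± 0.09) and the weakly expressed H3-5 (called higher, 0.75 ± 0.18 and 0.69 ± 0.18). Both pseudogenes were called higher in DCIS.COM under both vectors, against 22.5% and 22% of all genes.

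Genes that are known to give polyadenylated as well as stem-loop mRNAs (H1-2, H2AC6, H2BC5, H2BC12 and H2BC21) did not move as a block. H1-2, H2BC12 and H2BC21 were called higher under both vectors, against 22.5% and 22% of all genes, and H2AC6 and H2BC5 under neither. With empty vector the count was 2 of 5 without DCIS.COM pCDH-empty 1, since H1-2 was then under the fold threshold. H2AC6 was at 0.48 ± 0.14 and 0.02 ± 0.14, and H2BC5 at 0.34 ± 0.17 and 0.14 ± 0.17. H2BC21 had the largest difference of the 5, at 1.51 ± 0.21 and 1.16 ± 0.21.

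The genes around histone supply were read from lists. Of 28 S phase genes, 18 were called higher and 0 lower in DCIS.COM with empty vector, and 19 higher and 0 lower with HOTAIR vector, with medians of 0.72 and 0.71, against 22.5% and 22% of all genes called higher. The empty-vector count was 19 higher and 0 lower without DCIS.COM pCDH-empty 1. Examples were MCM2, a subunit of the replicative helicase, at 1.54 ± 0.11 and 1.35 ± 0.11 and RRM2, a subunit of ribonucleotide reductase, at 1.18 ± 0.06 and 1.08 ± 0.06, whereas E2F1 had values of -0.14 and -0.09. At an unadjusted p under 0.05 the S phase list had 24 and 26 genes higher and 0 lower. Of 17 genes for histone mRNA transcription and processing, 3 were called higher and 1 lower with empty vector and 1 and 1 with HOTAIR vector, a share near or below that of all genes. The empty-vector counts were 2 and 1 without DCIS.COM pCDH-empty 1. SLBP did not pass the test (0.04 ± 0.07 and 0.11 ± 0.07). NPAT, the cyclin E substrate that activates histone genes, did not pass with empty vector (0.04 ± 0.10), and with HOTAIR vector it was at 0.30 ± 0.10 (limma adjusted p = 0.0286), under the fold threshold. CPSF3, the nuclease that cuts histone pre-mRNA, was called higher (0.92 ± 0.09 and 0.85 ± 0.09) and TUT7, which adds uridines to histone mRNA, was called lower (-0.93 ± 0.07 and -0.87 ± 0.07). Of 26 histone chaperones and deposition factors, 7 were called higher and 1 lower with empty vector and 6 and 1 with HOTAIR vector, shares of higher calls close to those of all genes. With empty vector they were 9 and 0 without DCIS.COM pCDH-empty 1. CHAF1B, a subunit of the chaperone that deposits H3 and H4 behind the fork, was at 1.39 ± 0.08 and 1.20 ± 0.08, and HJURP, the chaperone of the centromeric H3 variant, at 1.34 ± 0.08 and 1.24 ± 0.08. ATRX, which works with DAXX in placing H3.3 at heterochromatin, was called lower, at -0.80 ± 0.16 and -0.61 ± 0.16, but at -0.57 it was under the fold threshold with empty vector without DCIS.COM pCDH-empty 1. Of the 22 small RNA genes, 3 were called higher with empty vector and 11 with HOTAIR vector, against 22.5% and 22% of all genes. The count with empty vector was lower without DCIS.COM pCDH-empty 1.

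HOTAIR overexpression was then compared with the empty vector within each line. In MCF10A, 0 of 77 histone genes were called (limma, against 0.0218% of all genes), and 1 had an unadjusted p under 0.05, against 7.28% of all genes. Without DCIS.COM pCDH-empty 1, which enters this comparison only through the shared estimate of the spread, 0 were called and 48 had an unadjusted p under 0.05, against 18.4% of all genes. The replication-dependent genes had slightly lower values with HOTAIR: the median log2 difference was -0.15, the ratio of summed CPM was 0.903, and 54 of 64 genes did not overlap and were lower, against 24.8% of all genes. These genes also shifted together between replicates, with 61 of 64 higher in MCF10A pCDH-empty 1 than in pCDH-empty 2. The genes of such a count are therefore not separate observations. Over the 77 members, 58 did not overlap and were lower and 4 were higher, against 22.5% of all genes higher. The summed small RNA share was also lower, at 15.2% and 13.7% with HOTAIR against 17.9% and 16.6%. Of 4 markers of other cell types, 3 did not overlap and were higher with HOTAIR, with COL1A1 at 0.90 and COL1A2 at 0.93. The remaining 1 did not overlap and was lower, so this list was mixed. The part of small RNA content or of these markers in the histone values was not tested. The gene with that p was H1-3, at 158 and 151 CPM with empty vector and 133 and 135 CPM with HOTAIR, a log2 difference of -0.20 ± 0.08. The members farthest below 0 were H3C12 (-0.45 ± 0.29), H3C13 (-0.26 ± 0.21), H3C10 (-0.26 ± 0.18), H3C7 (-0.24 ± 0.14) and H3C2 (-0.22 ± 0.18), all H3 genes and none past the test. H3C10 was at 111 and 108 CPM with empty vector and at 91.3 and 91.2 CPM with HOTAIR. The 11 variants had a median of 0.01.

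In DCIS.COM, 0 of 77 histone genes were called either (limma, against 0.0871% of all genes). Here 34 had an unadjusted p under 0.05, 33 of them lower with HOTAIR, against 17.5% of all genes in either direction and 8.41% lower. The replication-dependent median was -0.39 and the ratio of summed CPM was 0.76. These values turned on DCIS.COM pCDH-empty 1. Without it the median was -0.08, the ratio of the HOTAIR mean to pCDH-empty 2 was 0.947, and 16 members had an unadjusted p under 0.05, against 15.1% of all genes, with 0 called by limma. Without pCDH-empty 2 the median was -0.67 and 45 members were called lower, against 2.09% of all genes. With either of them left out, that arm is 1 library, which is assumed to vary like the libraries of the other groups. The 2 empty-vector libraries therefore gave different answers for the same comparison. With both libraries kept, 54 of 64 replication-dependent genes did not overlap and were lower with HOTAIR, against 24.5% of all genes, and 3 of the 77 members did not overlap and were higher, against 24.7%. These 3 were all among the 11 variants. As in MCF10A, the genes of such a count are not separate observations.

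**Figure D4:**
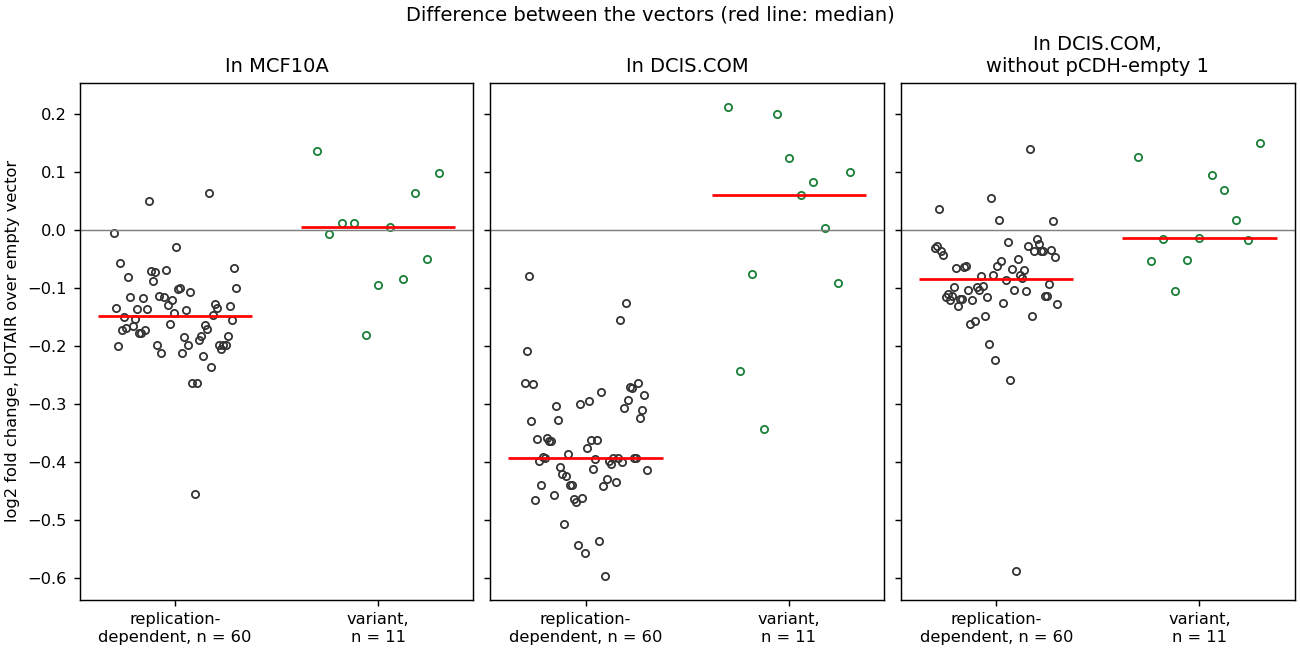
log2 fold change of HOTAIR over empty vector (vertical axis) for 60 replication-dependent genes and 11 variants in MCF10A, in DCIS.COM, and in DCIS.COM without pCDH-empty 1, with 1 circle per gene and a red line at the median. The 4 genes with 0 to 5 reads in DCIS.COM and the pseudogenes are left out. The replication-dependent medians are -0.15, -0.39 and -0.08.

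The members farthest below 0 in DCIS.COM were low genes or H2B genes. H2BC20P, a pseudogene, was at 7.92 and 5.56 CPM with empty vector and at 3.94 and 3.61 CPM with HOTAIR, a log2 difference of -0.80 ± 0.20 (limma adjusted p = 0.198). H2BC3 was at 70.1 and 44.1 CPM with empty vector and at 36.8 and 38.8 CPM with HOTAIR, a difference of -0.56 ± 0.18 (limma adjusted p = 0.245). Both pairs of groups were separate, yet in both genes the empty-vector libraries lay farther apart in CPM than the gap to the HOTAIR libraries. Without pCDH-empty 1 the differences were -0.55 and -0.22. H2BC17, H2BU1 and H3C12 were at -0.54 ± 0.19, -0.54 ± 0.16 and -0.60 ± 0.29, and at -0.20, -0.26 and -0.59 without that library.

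The genes with almost no reads in DCIS.COM stayed there under HOTAIR: the reads per library were 0 to 1 with empty vector and 0 to 5 with HOTAIR, too few for a fold change. Within MCF10A the same 4 genes had log2 differences from -0.16 to 0.06.

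The difference between the lines in the response to HOTAIR was tested by the interaction term. It called 0 of 77 members (limma, adjusted p under 0.05), against 0.0436% of all genes, with 2 members at an unadjusted p under 0.05 against 10.5% of all genes. The replication-dependent median of the interaction was -0.20 with all libraries, 0.09 without DCIS.COM pCDH-empty 1 and -0.50 without pCDH-empty 2, where 60 members were called lower and 2 higher, against 13.8% and 18.3% of all genes and under the same assumption about a lone library. Of the 28 S phase genes, 21 did not overlap and were lower with HOTAIR in each line, against 24.8% of all genes in MCF10A and 24.5% in DCIS.COM. Their median differences were -0.12 in MCF10A and -0.19 in DCIS.COM (-0.13 without pCDH-empty 1). In each line 0 were called (limma), with 9 and 14 lower at an unadjusted p under 0.05, against 2.88% and 8.41% of all genes. Their summed CPM was 2416 and 2382 against 2207 and 2174 in MCF10A, and 4282 and 4012 against 3615 and 3647 in DCIS.COM. How far that goes with the histone values was not tested.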

How the data were processed

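Cells were cultured, transduced and sequenced (76 nt paired-end reads, ScriptSeq v2 libraries) by the authors, whose processing notes name hg19, featureCounts and edgeR without versions. The deposited values are log2 CPM per gene, already scaled and filtered by the authors. Of the genes, 343 had no symbol. Whole reads were recovered from these values (100% within 0.1 read, with a constant of 0.0717 CPM) and used for read totals, counting intervals and the limma-voom alternative. Whether counting used strand is not given in the sources used here.

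All 8 libraries entered limma 3.58.1 (R 4.3.3) as 4 group means with a trended prior and 4 residual degrees of freedom, over 13771 genes. Calls needed a Benjamini-Hochberg adjusted p below 0.05 with a 1.5-fold difference, or the adjusted p alone for the interaction. Fold changes are on the scale of log2(CPM + 0.0717). An exact permutation test of 2 against 2 libraries cannot go below 0.333. The fit was tested on simulated data. Summaries used Python 3.11.15, pandas 2.3.3, numpy 2.4.6 and scipy 1.17.1.

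Positions, transcript lengths and stem-loops came from GENCODE 44 on GRCh37, with a GENCODE position for 71 members, and promoters from RefSeq on GRCh38.p14. Members named were the 5 largest changes in each direction per contrast, the most abundant of each class, the variants, H2BC20P, H2BC3 and the genes with polyadenylated forms. Not all of them are given a value in every contrast. For HOTAIR over empty vector the fold changes given are mainly those of the largest falls. For the interaction no fold change of a member is given. H1-3, H1-5, H4C8, H4C11, H4C12, H2AC18, the neighbours of the 4 genes with almost no reads in DCIS.COM and the genes named from pathway lists were chosen after their values were seen. The values of 1 variant are not reported here. Genes at or near 0 reads in DCIS.COM got no fold within that line. Members and lists were chosen with earlier results of these data known. Alternatives were other pseudocounts, filters, thresholds, scalings, variance models, length or GC correction, separate fits, a replicate block and leaving out each library. Leaving out the reads of all listed small RNAs was added after seeing the data.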

Additional observations from a re-analysis of the deposited data

Results flagged for a closer look

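In 2 members the HOTAIR and empty-vector libraries did not overlap in either line and moved in opposite directions. H2AC6 had log2 fold changes of 0.05108 in MCF10A and -0.4095 in DCIS.COM, and H3-3B had -0.08438 and 0.08284. This was 2 of 77 members, or 2.6%, against 1509 of 13771 genes, or 11%. None of these values was called by limma, and the interaction did not pass for H2AC6 (adjusted p = 0.467) or for H3-3B (adjusted p = 0.498). Without DCIS.COM pCDH-empty 1 the H2AC6 value in DCIS.COM was -0.16.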

How the results depend on the processing

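Requiring a log2 fold change of 1.5 left 12 members called between the lines with empty vector and 8 with HOTAIR vector. Length correction left 33 with HOTAIR vector and moved the replication-dependent median to 0.47. The variant median with empty vector was 0.66 with a pseudocount of 1 CPM, 0.64 with length correction and 0.67 at a mean CPM of at least 10, and with HOTAIR vector it was 0.60 with the pseudocount, 0.75 with quantile normalization, 0.56 with length correction and 0.75 without the small RNAs. The cause was not tested.

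With each library left out in turn, members called ranged from 0 to 45 for HOTAIR in DCIS.COM and from 0 to 62 for the interaction, both highest without DCIS.COM pCDH-empty 2. The replication-dependent medians ranged from -0.67 to -0.078 for HOTAIR in DCIS.COM, from -0.50 to 0.085 for the interaction and from 0.68 to 1.28 between the lines with empty vector. The variant medians ranged from -0.013 to 0.082 for HOTAIR in DCIS.COM, from -0.048 to 0.075 for the interaction and, between the lines with HOTAIR vector, from 0.58 to 0.75. For the 44 values that put a member among the largest changes of a contrast, 931 comparisons with an alternative kept direction and call, 11 gained a call and 3 turned sign. Other values of named members are not in this tally. H3-5 in MCF10A ranged from -0.23 to 0.36, H3C6 in MCF10A from -0.10 to 0.23 and H2AZ1 in DCIS.COM from -0.052 to 0.45.

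The replicate numbers did not pair the libraries (correlations of deviations from -0.016 to 0.0661), and the replicate block gave 0, 0, 0, 60 and 58 members called for HOTAIR in MCF10A, HOTAIR in DCIS.COM, the interaction and the lines with empty and HOTAIR vector. The limma-voom fit of the recovered reads gave these same 5 counts of members, and over all genes it called 5, 12, 5, 6403 and 5988, against 3, 12, 6, 6370 and 6018 on the deposited values.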
